A study of Homo sapiens with 79 samples.

Results

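LSD1, the lysine demethylase encoded by KDM1A, was immunoprecipitated from lightly crosslinked K562 cells and the RNA that came down with it was sequenced (fRIP-Seq). Its 3 libraries were set against the 3 libraries of input set 1, so that 6 of the 79 libraries of the series carry the comparison. The LSD1 libraries were chosen by their labels, and input set 1 as the nearest of 3 input sets (below). The series holds 70 fRIP libraries of 24 proteins and 9 input libraries in 3 sets. K562 is an established human erythroleukemia line, the cells were not treated beyond formaldehyde crosslinking, and an input library is total RNA of the same kind of sonicated lysate taken before beads and antibody were added, so both groups share cell line, crosslinking and lysis. The sources used here do not say which lysate served LSD1, but the input value in the authors' own LSD1 comparison lay within a root mean square of 0.033 (log2) of the mean of input set 1, against 0.485 and 0.512 for the other two sets. All values are FPKM, read fragments scaled to transcript length and library size, so that levels are per length. Per the methods, replicate fRIPs were made on different dates from different lysates. The sources used here do not say how the 3 libraries of an input set were replicated. The antibody was a commercial one from Abcam and no fRIP with a nonspecific antibody was analysed here.

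LSD1 removes methyl groups from lysine 4 of histone H3 with a flavin cofactor. It acts inside larger assemblies: CoREST, with the RCOR scaffolds and the deacetylases HDAC1 and HDAC2, and NuRD, with the remodeler CHD4, the MTA proteins and the histone chaperones RBBP4 and RBBP7. Transcription factors such as GFI1B, TAL1 and SNAI1 bring it to DNA, and in blood cells it restrains genes of other lineages. LSD1 has no classical RNA-binding domain, and its contacts with RNA have been described mainly for long noncoding RNAs (lncRNAs) and telomeric transcripts.

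From low values that are whole multiples of the worth of a single fragment, depth was estimated at 20.2, 17.98 and 18.3 M fragments for LSD1 and 23.4, 20.4 and 21.1 M for input set 1. Replicates differed by more than sampling noise, with a chi-square per gene of 3.36 to 4.88 between LSD1 libraries and 1.55 to 2.71 between those of input set 1. Of 9 K562 markers all were detected, and of 9 markers of other cell types MS4A1 and PECAM1 were at 0 in all 6 libraries. The summed level of the K562 markers was 1177, 845 and 1420 FPKM in LSD1 and 901, 2373 and 2407 FPKM in input set 1, while that of the other markers, mostly EPCAM and CD3D, ranged from 52.3 to 66.3 FPKM. The first library of input set 1 stood apart in the fetal and embryonic globins: HBG2 was at 313, 121 and 456 FPKM in the LSD1 libraries and 178, 901 and 944 FPKM in input set 1. Globin values are therefore given with and without that library, and its part in other results was read from the values without it.

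Few transcripts were clearly higher in LSD1 fRIP than in input. Of the 48453 genes measured, 25442 reached 1 FPKM in at least 2 libraries of the series and were tested. With the values as deposited, 289 of them (1.14%) were higher and 2688 (10.6%) lower in LSD1, at an adjusted p under 0.05 in limma and a change of more than 2-fold. The median log2 fold change, on the log2(FPKM + 1) scale, was -0.18. LSD1 libraries had 14238 to 14772 genes of at least 1 FPKM and those of input set 1 had 17358 to 17695. When each library was centred on its own median, every gene's fold change over input set 1 rose by 0.60 on the log2 scale, 2993 genes (11.8%) were higher and 762 (3.0%) lower, and the share of higher genes among the calls went from 9.71% to 79.7%. All 289 higher and all 762 lower genes were called under both scalings. Against a median taken over mRNAs of at least 10 FPKM, the shift was -0.07 and the counts were 221 and 3073. Every LSD1 library was above each of the 9 inputs for 1809 genes (7.11%) and below each for 3852 (15.1%). Directions below are for values as deposited. For genes against input set 1, a fall smaller than 0.60 turns into a rise under centring, whether or not this is repeated at the value. Against the other inputs 0.814% of genes were higher and 6.66% lower for all 9 libraries, 1.14% and 5.99% for set 2, and 0.908% and 5.23% for set 3, the shares beside which counts against those inputs are read.

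The genes of this and the next 3 paragraphs were taken from those with a mean of at least 5 FPKM over the 6 libraries whose LSD1 libraries all lay outside the range of the 9 inputs, so that the groups do not overlap was fixed by the choice. Within these limits the mRNAs with the highest enrichment encode an RNA-binding protein, a chromatin remodeler, glycolytic and pentose phosphate enzymes and housekeeping proteins. YBX1, a cold shock domain protein that packages mRNA (chr1:43148089-43169476, + strand, hg19), was at 1125, 859 and 1173 FPKM in the LSD1 libraries and 91.4, 137 and 139 FPKM in input set 1 (log2 fold change 3.11 ± 0.27 (SE), adjusted p = 2.25e-13). CHD7, a chromodomain remodeler (chr8:61591299-61780587, + strand), was at 139.7, 141 and 173 FPKM in the LSD1 libraries and 17.9, 18.5 and 18.3 FPKM in input set 1 (log2 fold change 2.98 ± 0.18 (SE), adjusted p = 4.09e-19). The highest of all 9 inputs reached 259 FPKM for YBX1 and 18.5 FPKM for CHD7. GNB1, a G protein beta subunit (chr1:1716724-1823731, - strand), was at 372, 441 and 426 FPKM in the LSD1 libraries and 83.9, 95.1 and 94.6 FPKM in input set 1 (log2 fold change 2.17 ± 0.12 (SE), adjusted p = 8.94e-21). HDLBP, a multi-KH-domain RNA-binding protein also called vigilin (chr2:242166679-242256476, - strand, overlapping SEPTIN2), was at 557, 639 and 552 FPKM in the LSD1 libraries and 143, 137 and 142 FPKM in input set 1, and its log2 fold change was 2.04. The replicates of GNB1 and HDLBP lay close together in both groups.

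Enzymes of sugar metabolism were among the same genes. GAPDH of glycolysis was at 1629, 1459 and 1726 FPKM in the LSD1 libraries and 274, 365 and 363 FPKM in input set 1 (log2 fold change 2.27). TKT, the transketolase of the pentose phosphate pathway, was at 429, 620.0 and 402 FPKM in the LSD1 libraries and 119.8, 114 and 114 FPKM in input set 1 (log2 fold change 2.02). HK1, a hexokinase, was at 991, 885 and 823 FPKM in the LSD1 libraries and 234, 277 and 286 FPKM in input set 1 (log2 fold change 1.76). Of these 3 enzymes TKT varied most between LSD1 libraries for its level. TUBB3, a neuronal beta tubulin, and MTSS1L rose by 1.78 and 1.72 on the log2 scale. TUBB3 overlaps another annotated gene, so its reads may be shared, and against input set 2 it came to 0.97, under 2-fold. LSD1 had the highest mean FPKM of all 24 fRIP targets for each of these 9 mRNAs. For CHD7 the next was EZH2 with 67.1 FPKM against 151 ± 18.5 (SD, n = 3) in LSD1, and for YBX1 it was HUR with 813 against 1052 ± 169.

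Among lncRNAs within the same limits the highest were LINC00657, RP5-940J5.9, RP11-124N14.3, HCG11 and AC005523.2. LINC00657, a long abundant lncRNA also known as NORAD (chr20:34633540-34638940, - strand), was at 259.7, 219.7 and 211 FPKM in the LSD1 libraries and 56.3, 57.4 and 57.1 FPKM in input set 1 (log2 fold change 1.99 ± 0.15 (SE), adjusted p = 6.91e-15). It ranked 4 of the 24 targets, behind WDR5 with 581 FPKM. HCG11, of the histone gene cluster region, was at 37.9, 32.5 and 29.8 FPKM in the LSD1 libraries and 13.7, 13.2 and 11.8 FPKM in input set 1 (log2 fold change 1.31). RP5-940J5.9 (2.04), RP11-124N14.3 (1.58) and AC005523.2 (1.14) overlap GAPDH, VIM and FEM1A on the opposite strand. Use of strand in counting is not given in the sources used here, so reads of these antisense genes and their partners cannot be told apart. AC005523.2 fell to 0.89 against all 9 inputs.

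The lowest genes within the limits included short transcripts and genes that lie inside others. RPS28, a small ribosomal protein (chr19:8386042-8388224, + strand, overlapping NDUFA7 and KANK3), was at 17.2, 12.6 and 16.2 FPKM in the LSD1 libraries and 108, 97.0 and 96.4 FPKM in input set 1 (log2 fold change -2.64 ± 0.25 (SE), adjusted p = 4.27e-12). APOC1, a small apolipoprotein, was at 7.16, 14.7 and 10.6 FPKM in the LSD1 libraries and 107, 51.6 and 54.6 FPKM in input set 1 (log2 fold change -2.58). APOC1 varied between libraries in both groups. The olfactory receptor genes OR52D1, OR51B6 and OR51M1 lie within the annotated span of HBE1 and HBG2, on the other strand, and their log2 fold changes were -2.43, -2.40 and -2.39. OR51B6 was at 0.842, 1.13 and 1.46 FPKM in the LSD1 libraries and 9.33, 10.7 and 10.6 FPKM in input set 1. The other mRNAs of this group were CYP19A1 (-2.77), the aromatase, KCNJ16 (-2.54), a potassium channel, OR2B2 (-2.42), AL590452.1 (-2.41) and SLC16A4 (-2.39), a monocarboxylate transporter. CYP19A1 varied in input, with 19.6, 3.91 and 6.74 FPKM, and against input set 3 its log2 fold change was -1.27 and did not pass. SCARNA9, a small Cajal body RNA inside CEP295 (chr11:93454679-93455031, + strand), had the lowest value among lncRNAs that met these limits, at -3.15, with 8.86, 14.5 and 11.1 FPKM in the LSD1 libraries and 137, 91.4 and 101 FPKM in input set 1. CTD-2349P21.10, AC002480.4, AC004535.2 and RP11-290D2.3 had log2 fold changes of -2.82, -2.78, -2.71 and -2.71.

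**Figure D1:**
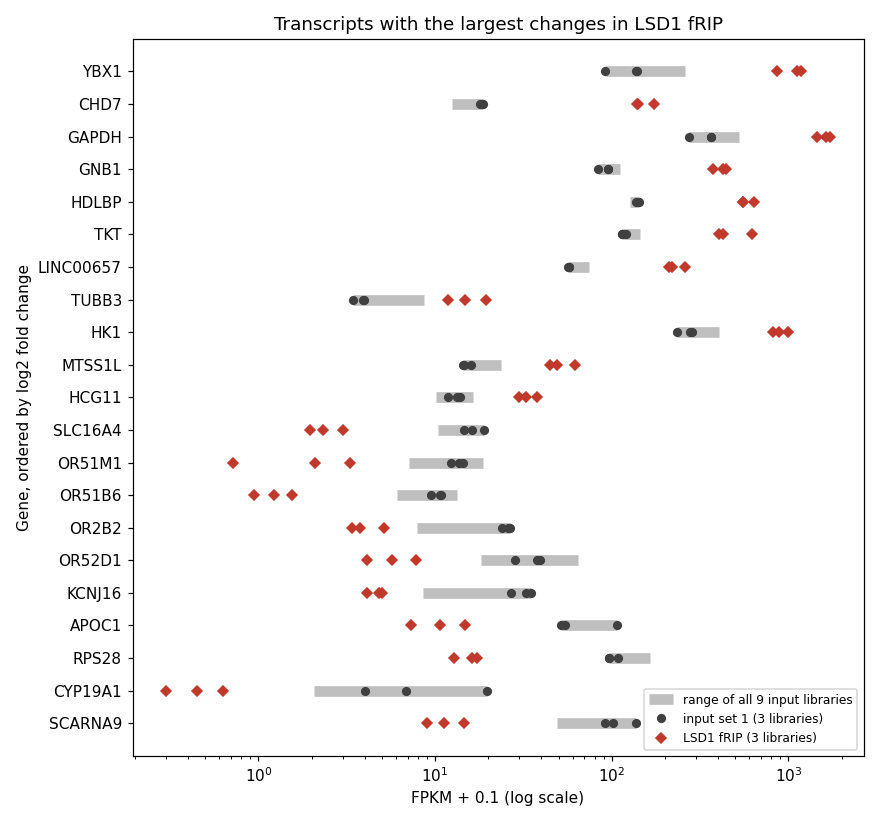
FPKM of the named genes with the largest changes (log axis, 0.1 added; genes known only by clone names are left out), with LSD1 libraries as red diamonds, input set 1 as dark points and the range of all 9 inputs as a grey bar. For YBX1, CHD7, GNB1 and the other enriched genes all 3 diamonds sit to the right of the grey bar, and for the depleted genes all 3 sit to its left, as the rule that chose them requires.

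By RNA class, mRNAs took a larger share of LSD1 fRIP than of input. They made up 88.2, 86.7 and 88.1% of the summed FPKM in the LSD1 libraries, 77.6, 76.7 and 77.2% in input set 1 and 76.7 to 82.9% over all 9 inputs. The share of lncRNAs was 4.97, 4.79 and 4.53% in LSD1 and 6.90, 6.21 and 6.42% in input set 1. That of processed pseudogenes was 1.72, 1.86 and 1.74% against 2.64, 2.59 and 2.61%. Mitochondrial tRNAs took 2.30, 3.87 and 2.52% in LSD1 and 8.46, 11.5 and 10.6% in input set 1. For each of these 4 classes every LSD1 library lay outside the range of the 9 inputs (two-sided exact permutation test of 3 against 9 libraries, p = 0.00909, the smallest it can give, and 0.0114 adjusted over 5 classes). The inputs come in sets of 3, so they are not fully exchangeable, and 3 against 3 could not go below 0.1. The highest LSD1 share of lncRNAs and the lowest input share both round to 4.97%. Other pseudogenes did not pass (exact permutation p = 0.309). Without the 10 genes of highest mean FPKM the difference of the mitochondrial tRNAs went from -6.11 to -1.30 percentage points and no longer passed, and that of mRNAs went from 8.41 to 3.82 points and still passed. A share does not depend on the scaling of a library, but a class can only gain where others lose.

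The per-gene calls are read beside the 1.14% higher and 10.6% lower of all genes. Of 13618 mRNA genes tested 230 were higher and 529 lower (median log2 fold change -0.02). Of 5245 lncRNAs 11 were higher and 856 lower (-0.36), and of 4234 processed pseudogenes 35 were higher and 992 lower (-0.44). After centring these medians were 0.58, 0.24 and 0.16, so the order of the classes stayed while the sign of each turned. The calls were then 2500 higher and 95 lower for mRNAs, 155 and 213 for lncRNAs, and 219 and 362 for processed pseudogenes. Position within other genes went with lower values. Among lncRNAs, 192 of 567 that lie inside an mRNA gene on its strand were lower and 0 higher (median -0.72, and -0.12 after centring), 336 of 1686 inside one on the other strand were lower and 4 higher (-0.46), and 215 of 1746 outside mRNA genes (12.3%) were lower and 4 higher (-0.29). Among processed pseudogenes, 245 of 787 inside an mRNA gene on its strand were lower and 4 higher (-0.65), 528 of 1371 inside one on the other strand were lower and 2 higher (-0.87), and 216 of 2038 outside (10.6%) were lower and 29 higher (-0.20). Both shares outside mRNA genes are near that of all genes. After centring the median was 0.31 for lncRNAs and 0.40 for pseudogenes outside mRNA genes, so both turned sign. Without known use of strand, such values can hold reads of the surrounding gene.

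How many mRNAs of LSD1 and its partners were called depended on the scaling. Of 29 such genes 28 were tested; 9 were higher and 3 lower at an adjusted p under 0.05, and 0 passed the 2-fold limit on the log2(FPKM + 1) scale in either direction. After centring 9 of the 28 were called higher and 0 lower, beside 11.8% higher of all genes and 1917 of 7472 mRNAs of at least 10 FPKM. As deposited, by adjusted p alone 8.66% of all genes were higher and 21.7% lower. The median of the list was 0.20 (0.22 against input set 2, 0.06 against set 3 and 0.13 after centring on abundant mRNAs) beside -0.18 for all genes tested and 0.10 for mRNAs of at least 10 FPKM. ZNF217, a zinc finger protein of CoREST-type complexes, was at 44.5, 47.0 and 42.1 FPKM in the LSD1 libraries and 22.4, 21.6 and 22.0 FPKM in input set 1 (log2 fold change 0.99 ± 0.15 (SE), adjusted p = 1.06e-06), just under the limit. It passed 2-fold against sets 2 and 3 (1.22 and 1.18), with upper quartile scaling (1.03), without the third LSD1 library (1.02) and with pseudocounts of 0.1 and 0.5 FPKM (1.01 and 1.00). With those pseudocounts CTBP2 was called lower (-1.08 and -1.01), and without the second LSD1 library GATAD2A was called higher (1.10). Of the NuRD genes, GATAD2A (0.90), MTA1 (0.88), MBD3 (0.65), MTA2 (0.61) and RBBP7 (0.53) rose. MTA1 was at 56.3, 62.8 and 63.0 FPKM in the LSD1 libraries and 36.9, 32.8 and 28.2 FPKM in input set 1. Of the CoREST side, RCOR2 (0.75) and the corepressor CTBP1 (0.59) rose. KDM1A itself was at 8.45, 8.54 and 8.79 FPKM in the LSD1 libraries and 5.34, 5.53 and 6.09 FPKM in input set 1 (log2 fold change 0.53 ± 0.16 (SE), adjusted p = 0.00645). The input range over all 3 sets was 5.34 to 13.4 FPKM, which holds the LSD1 values, and against all 9 inputs the log2 fold change was -0.13. CTBP2 (-0.93), RCOR3 (-0.60) and GATAD2B (-0.33) fell, and after centring they came to -0.32, 0.00 and 0.27, which turned the direction of GATAD2B. Several of these values depended on the input: against sets 2 and 3 the log2 fold changes were 0.30 and 0.47 for GATAD2A, 0.05 and 0.07 for RBBP7, -0.54 and -0.37 for KDM1A and 0.92 and 0.96 for MTA1. The remaining 16, among them HDAC1 (-0.01), HDAC2 (0.02), RCOR1 (0.39) and CHD4 (-0.22), did not pass. The summed share of the list was 0.308, 0.283 and 0.351% in LSD1 and 0.227 to 0.259% over the 9 inputs.

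**Figure D2:**
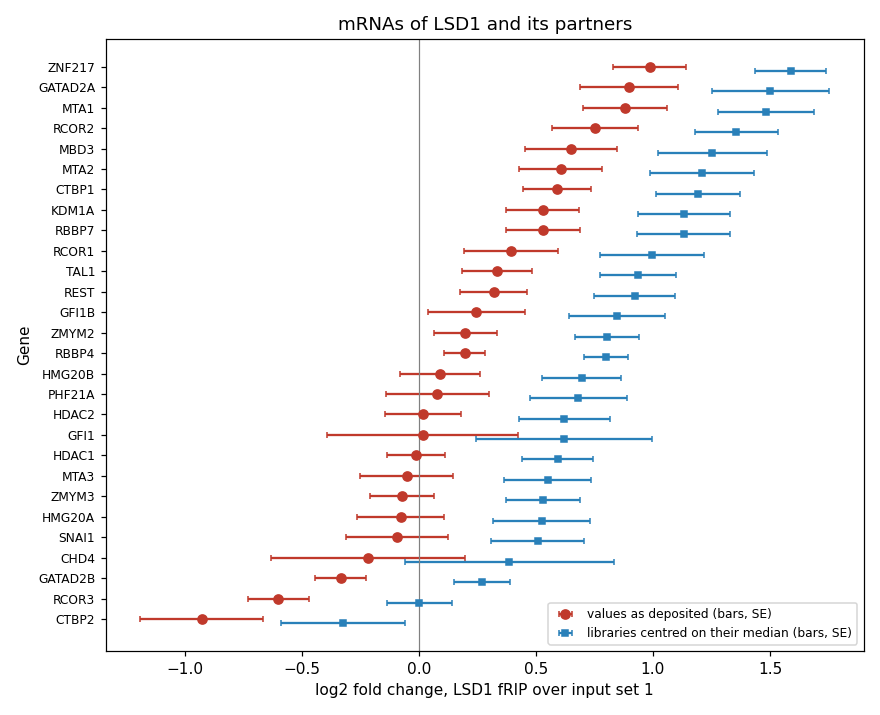
Log2 fold change of LSD1 fRIP over input set 1 for the 28 tested mRNAs of LSD1 and its partners, with SE bars, for values as deposited (red) and libraries centred on their median (blue). ZNF217, GATAD2A and MTA1 lead, CTBP2 is lowest in both, and centring moves every gene to the right by 0.60.

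Other chromatin genes and genes of blood cells had few calls as deposited. After centring 3 of 20 histone demethylases, 5 of 15 H3K4 methyltransferase genes and 5 of 26 erythroid genes were higher and 0 lower. Beside them stand 11.8% higher of all genes and 1917 of 7472 mRNAs of at least 10 FPKM. As deposited, of 20 histone demethylases 2 were higher and 1 lower by adjusted p and 0 passed 2-fold (median 0.02, and 0.26 and 0.17 against input sets 2 and 3): PHF2 (0.63) and KDM1A rose and KDM3B (-0.44; 0.16 after centring) fell. Of 15 genes of the H3K4 methyltransferases, the enzymes that write the mark LSD1 removes, and their shared subunits, 1 was higher than 2-fold and the median was 0.10 (0.29 and 0.31 against sets 2 and 3). This was WDR82, a subunit of the SET1 complexes, at 56.8, 49.7 and 62.2 FPKM in the LSD1 libraries and 18.4, 19.1 and 19.3 FPKM in input set 1 (log2 fold change 1.52 ± 0.19 (SE), adjusted p = 1.04e-08). The shared subunits WDR5 (0.74) and RBBP5 (0.42) rose by less than 2-fold. Of 26 erythroid factors and surface proteins 0 passed 2-fold and the median was 0.04. STAT5A was at 336, 283 and 359 FPKM in the LSD1 libraries and 199.99, 144 and 149.7 FPKM in input set 1 (log2 fold change 0.99) and RUNX1, a hematopoietic transcription factor, at 22.8, 19.2 and 25.0 FPKM in the LSD1 libraries and 45.5, 42.4 and 45.5 FPKM in input set 1 (-0.97). STAT5A was higher and RUNX1 lower by adjusted p, and after centring STAT5A still passed (log2 fold change 1.60) while RUNX1 did not (-0.37). Of 7 tested genes of myeloid differentiation 0 passed 2-fold, and CSF1R was lower by adjusted p (-0.62; -0.02 after centring). The 9 globins tested had a median of -0.85 and 0 passed 2-fold, while 4 were lower against all 9 inputs (median -1.46) and 2 against each of sets 2 and 3. Without the first library of input set 1 the median was -1.72 and 1 globin was called lower.

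Translation factors were the gene list with the largest share of enriched members: 8 of 39 were higher and 1 lower, beside 1.14% and 10.6% of all genes tested (median 0.54). After centring 21 were higher and 0 lower (median 1.14), beside 11.8% and 3.0% of all genes and 1917 higher of 7472 mRNAs of at least 10 FPKM. EEF2, the elongation factor that moves the ribosome along, was at 3188, 4838 and 2677 FPKM in the LSD1 libraries and 1121, 1056 and 1073 FPKM in input set 1 (log2 fold change 1.67 ± 0.17 (SE), adjusted p = 1.31e-11). EEF1A1, which delivers aminoacyl-tRNA, was at 3729, 4389.7 and 3165 FPKM in the LSD1 libraries and 1551, 1630.4 and 1628 FPKM in input set 1 (log2 fold change 1.22). In both the LSD1 libraries varied more than the inputs and did not overlap them. Subunits of the initiation factor eIF3 were split. EIF3H was at 607, 804 and 567 FPKM in the LSD1 libraries and 213, 243 and 236 FPKM in input set 1 (log2 fold change 1.496), EIF3I and EIF3A rose by 1.25 and 1.06, and EIF3K fell by 0.57 on the log2 scale (0.03 after centring). FAU, which encodes a ribosomal protein fused to a ubiquitin-like one, was the called lower member as deposited, at 178, 167 and 192 FPKM in the LSD1 libraries and 400.4, 394 and 393 FPKM in input set 1 (log2 fold change -1.14 ± 0.19 (SE), adjusted p = 4.40e-06). Against each of input sets 2 and 3, 5 members were higher and 1 lower, with medians of 0.16 and 0.26.

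Among chaperones, immediate early genes and motor proteins few members passed 2-fold as deposited. After centring 17 of 33 chaperones, 11 of 27 immediate early genes and 22 of 65 kinesins and centrosomal genes were higher and 0 lower. Beside them stand 11.8% higher of all genes and 1917 of 7472 mRNAs of at least 10 FPKM. As deposited, of all genes 1.14% were higher by the full rule, and by adjusted p alone 8.66% were higher and 21.7% lower. Of 33 chaperones and heat shock factors 2 were higher and 0 lower, and 13 rose by adjusted p (median 0.42). Against input sets 2 and 3 the median was 0.06 and 0.14, with 0 higher and 2 and 1 lower. HSP90AB1 was at 894, 878 and 938 FPKM in the LSD1 libraries and 335, 394 and 381 FPKM in input set 1 (log2 fold change 1.29), and the log2 fold change of DNAJA2 was 1.00. Both were under 2-fold against input sets 2 and 3, and DNAJA2 also without the first or the third library of LSD1 (0.94 and 0.93) or of input set 1 (0.98 and 1.00, the latter just under the limit). Subunits of the CCT chaperonin, CCT3 (0.82), CCT8 (0.81) and CCT5 (0.57), rose by less. Of 27 immediate early genes 1 passed 2-fold, JUN, at 19.2, 21.6 and 15.1 FPKM in the LSD1 libraries and 4.67, 9.35 and 9.20 FPKM in input set 1, which was under 2-fold and did not pass without the first library of input set 1 (log2 fold change 0.92, adjusted p = 0.084 in limma) and against input sets 2 and 3 (0.82 for each). Of 65 kinesins and centrosomal genes 4 were higher and 0 lower (median 0.11, beside 0.10 for mRNAs of at least 10 FPKM): KIF3C (1.44), KIF3B (1.38), KIF1C (1.18) and KIF21B (1.10). KIF3B was at 23.1, 23.1 and 19.97 FPKM in the LSD1 libraries and 7.61, 8.09 and 7.85 FPKM in input set 1. Of 42 proteasome genes and 18 genes of SR proteins and their regulators 0 passed 2-fold, and 5 SR genes were lower by adjusted p (beside the 21.7% of all genes), led by SRSF2 (-0.87; -0.26 after centring). After centring 5 proteasome genes and 0 SR genes were higher. Against input sets 2 and 3, 2 and 1 proteasome genes were lower, with medians of -0.40 and -0.34 beside 0.09 against set 1. For SR genes the lower counts were 1 and 0.

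Ribosomal protein mRNAs fell on balance, unlike the translation factors. Of 83 tested 31 were lower and 2 higher (median -0.63, and -0.02 after centring, when 11 were higher and 10 lower), beside 10.6% lower and 1.14% higher of all genes, and 3.0% and 11.8% after centring. Against sets 2 and 3, 41 and 45 were lower. RPLP0 was at 2364, 3254 and 2345 FPKM in the LSD1 libraries and 899, 1048 and 1067 FPKM in input set 1 (log2 fold change 1.39) and RPS2 at 1229.9, 1345 and 1134 FPKM in the LSD1 libraries and 435, 521 and 525 FPKM in input set 1 (1.32). At the other end RPL38 was at 135, 117 and 150.1 FPKM in the LSD1 libraries and 609.5, 620.2 and 643 FPKM in input set 1 (log2 fold change -2.22 ± 0.27 (SE), adjusted p = 3.37e-09) and RPS29 at 136, 136 and 148 FPKM in the LSD1 libraries and 554, 608 and 655 FPKM in input set 1 (-2.10). The split followed the length of the transcript. Of 46 ribosomal protein genes under 700 bases 26 were lower and 0 higher (median -1.07), and of 37 longer ones 5 (13.5%) were lower and 2 higher (-0.17, and 0.43 after centring). After centring 10 of the shorter were lower and 0 higher (-0.47), and 0 of the longer were lower and 11 higher. Nuclear-encoded respiratory chain genes were alike: 27 of 87 were lower and 0 higher (median -0.64, and -0.04 after centring), with 23 of 39 lower under 700 bases and 4 of 48 (8.33%) above, the latter near the share of all genes. After centring 2 of the 87 were lower and 2 higher, beside 3.0% and 11.8% of all genes. Under 700 bases 2 of 39 were then lower and 0 higher, and above it 0 of 48 were lower and 2 higher. As deposited, 45 of the 87 were lower against all 9 inputs (median -1.08), and against sets 2 and 3 the counts were 47 and 49 (-1.32 and -1.23). NDUFB1, a small subunit of complex I, was at 21.1, 14.7 and 19.5 FPKM in the LSD1 libraries and 70.1, 70.3 and 73.1 FPKM in input set 1 (log2 fold change -1.91 ± 0.19 (SE), adjusted p = 1.16e-11), while the log2 fold change of the longer NDUFA10 was 0.88. Of all mRNAs of at least 10 FPKM, 97 of 326 under 700 bases were lower and 2 higher (-0.70), against 141 lower and 197 higher of 7141 longer ones (0.12). After centring 16 of the shorter were lower and 20 higher (-0.10), so their balance turned. Of the longer ones 19 were then lower and 1896 higher (0.72).

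**Figure D3:**
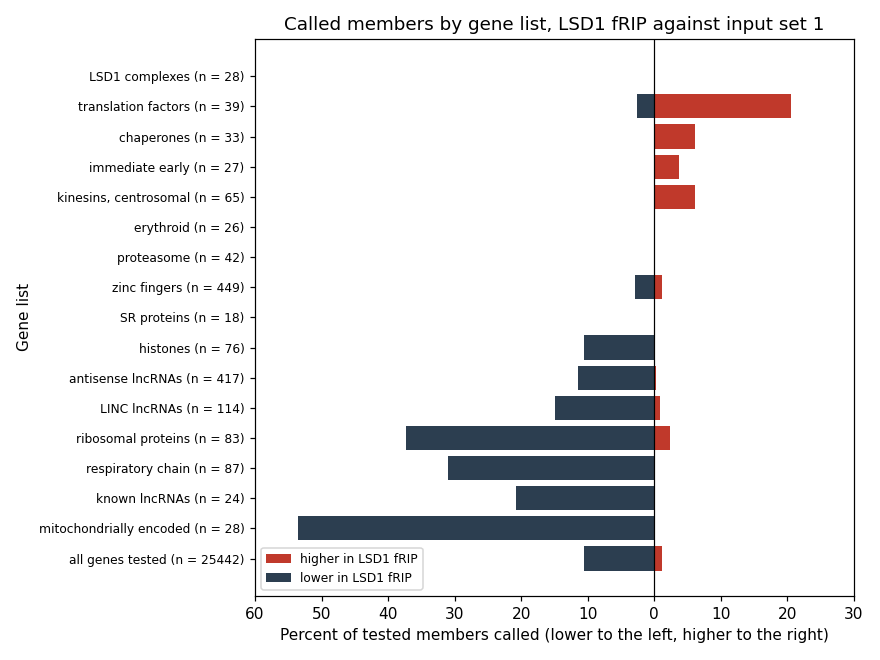
Percent of the tested members of each gene list that were called higher (red, right) or lower (dark, left) in LSD1 fRIP than in input set 1, with all 25442 genes tested at the bottom. Translation factors extend farthest to the right (8 of 39), and mitochondrially encoded (15 of 28), ribosomal protein (31 of 83) and respiratory chain genes (27 of 87) farthest to the left. Values are as deposited. After centring the lower counts of the latter lists were 3, 10 and 2.

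The same trend held over mRNAs in general. In 9093 mRNA genes of at least 5 FPKM in input, cut into 10 bins by transcript length, the median log2 fold change was -0.39 in the shortest bin (up to 937 bases) and 0.17 in the longest (from 4927 bases), and 147 of 910 genes were lower in the former against 9 of 910 in the latter. After centring the medians were 0.22 and 0.77, so the shortest bin turned sign and the difference between bins stayed. The second bin had a median of -0.03, so the step from the first to it was larger than that over all the later bins. Each of the 3 LSD1 libraries showed it, with medians of -0.40, -0.47 and -0.29 in the shortest bin. Across genes, Spearman's rho between length and fold change was 0.226, 0.212 and 0.178 per LSD1 library, as a description, since genes share the libraries. Exon number gave a mean rho of 0.121, which went to 0.015 after a regression on length, while length kept 0.144 after one on exon number. Within ribosomal protein genes the mean rho with length was 0.64 (n = 83), within respiratory chain genes 0.64 (n = 87) and within translation factors 0.25 (n = 39). Input level (mean rho 0.019) and GC content (-0.04, with signs that differed between libraries) showed little rank correlation, but the calls varied with both. By GC content, higher calls went from 0.44% in bin 1 of 10 to 3.63% in bin 9 and 2.86% in bin 10. By input level, higher calls went from 1.54% in bin 1 to 3.96% in bin 10. Lower calls were 5.71% in bin 1, 1.98% in bin 5 and 9.12% in bin 10. FPKM itself uses transcript length, and the part of that scaling in the trend was not tested.

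**Figure D4:**
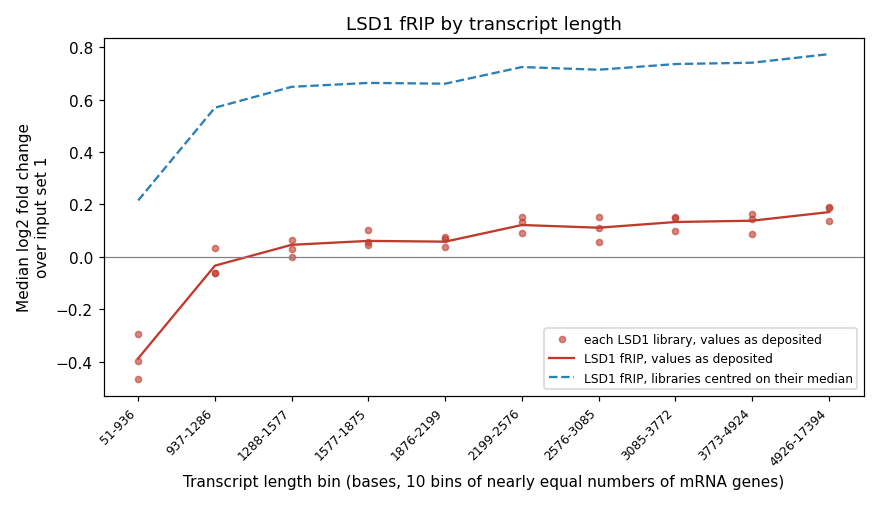
Median log2 fold change of LSD1 fRIP over input set 1 in 10 bins of transcript length (bases), for 9093 mRNA genes. Points are single LSD1 libraries and the red line the fitted values as deposited, which go from -0.39 to 0.17. The dashed blue line, for centred libraries, runs 0.60 above it.

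Mitochondrially encoded and many noncoding transcripts were lower. Of 28 mitochondrial genes 15 were lower and 0 higher (median -1.59, and -0.99 after centring). After centring 3 were lower and 0 higher, beside 3.0% and 11.8% of all genes. MT-ND4, a complex I subunit, was at 133, 158 and 133 FPKM in the LSD1 libraries and 499, 474 and 473 FPKM in input set 1 (log2 fold change -1.77 ± 0.23 (SE), adjusted p = 2.00e-08), and the log2 fold change of MT-CO3, of complex IV, was -1.41. Mitochondrial tRNAs are shorter than a fragment and varied widely: MT-TL1 was at 871, 0 and 0 FPKM in the LSD1 libraries and 587, 2291 and 1296 FPKM in input set 1, and its call was lost when any library but the first of LSD1 was left out (adjusted p from 0.0742 to 0.218 in limma). Of 24 known lncRNAs 5 were lower and 0 higher (median -0.74, and -0.14 after centring), beside 10.6% lower of all genes tested. After centring 1 was lower and 1 higher. As deposited, the lower count was 10 against all 9 inputs, 11 against set 2 and 9 against set 3. FTX was at 7.67, 6.45 and 6.40 FPKM in the LSD1 libraries and 22.5, 26.0 and 26.4 FPKM in input set 1 (log2 fold change -1.73 ± 0.22 (SE), adjusted p = 6.67e-09). The others were MEG3 (-1.48), KCNQ1OT1 (-1.44) and the snoRNA hosts SNHG6 (-1.31) and SNHG3 (-1.04). TUG1 was the member that rose by adjusted p (0.40). MALAT1, a nuclear speckle lncRNA, was at 1370.4, 1281 and 1287 FPKM in the LSD1 libraries and 5083, 5471 and 5547 FPKM in input set 1, groups that do not overlap. It did not pass in the fit of all 79 libraries (log2 fold change -2.03 ± 1.31, SE, adjusted p = 0.258 in limma), and in a fit of only the 6 libraries its adjusted p was 0.00502.

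Further RNA families are read beside the 1.14% higher and 10.6% lower of all genes tested. Of 9 structured noncoding RNAs 2 were lower, RPPH1, the RNA of RNase P (-1.45), and RN7SL1, of the signal recognition particle (-1.24). The median of the 9 was -0.56, and 0.04 after centring, when 0 were lower. Against input sets 2 and 3 the lower counts were 4 and 3. Of 18 snoRNAs and small Cajal body RNAs 4 were lower, led by SNORA71B, which was at 0, 6.35 and 0 FPKM in the LSD1 libraries and 68.0, 102 and 77.6 FPKM in input set 1. Of 76 replication-dependent histone genes 8 (10.5%) were lower and 0 higher (median -0.31, and 0.30 after centring), a share near that of all genes. The count depended on the input, with 38 lower against all 9 inputs (median -1.02), 45 against set 2 (-1.25) and 49 against set 3 (-1.51). HIST1H3B was at 79.7, 59.6 and 107 FPKM in the LSD1 libraries and 203, 187 and 187 FPKM in input set 1 (-1.26), and these near-identical copies may share reads. Of 114 LINC genes 1 was higher, LINC00657, and 17 lower (median -0.34), and of 417 genes named as antisense 1 was higher, EAF1-AS1 (1.09), and 48 lower (-0.38), or 11.5%, near the share of all genes. Against sets 2 and 3 the lower counts were 6 and 8 for LINC and 18 and 26 for antisense genes. Both medians turned positive after centring (0.26 and 0.22), when 3 LINC genes were higher and 8 lower, and 13 antisense genes higher and 9 lower. Of 449 zinc finger genes 5 were higher and 13 lower (median 0.05), against set 2 14 and 5, and against set 3 12 and 3. After centring 108 were higher and 2 lower, beside 11.8% and 3.0% of all genes, so the balance turned. Of mRNAs 2500 of 13618 were then higher, and 1917 of 7472 of those of at least 10 FPKM. ZNF184 was at 34.0, 31.3 and 31.9 FPKM in the LSD1 libraries and 12.7, 12.3 and 11.2 FPKM in input set 1 (1.36). ZNF888 varied among LSD1 libraries, at 7.12, 40.5 and 15.1 FPKM in the LSD1 libraries and 1.57, 1.87 and 1.34 FPKM in input set 1, and did not pass without the second of them (adjusted p = 0.061 in limma) or against input set 3. ZNF117 (-2.18) and ZNF493 (-1.91) were lowest, and ZNF117 did not pass against input sets 2 and 3.

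Within genes, isoforms that keep an intron were depleted from LSD1 fRIP. In 7361 genes with both a coding and a retained intron isoform, the median share of gene FPKM in retained intron isoforms was 6.80, 7.74 and 8.15% in the LSD1 libraries and 21.7, 20.5 and 20.7% in input set 1. It was 15.3 to 16.0% in input set 2 and 13.4 to 15.2% in set 3, so every LSD1 library lay below each of the 9 inputs. The mean difference was -9.38 percentage points (two-sided exact permutation test of 3 against 9 libraries, p = 0.00909, the smallest it can give), and it was -8.04 points over the 4692 genes of at least 5 FPKM. A share within a gene does not depend on the scaling of a library. Isoforms with no defined coding sequence went the same way by -4.52 points and nonsense-mediated decay isoforms by -1.75 points (exact permutation p = 0.00909 for each). The isoform table gave the same picture: of 19390 retained intron isoforms tested 3523 were lower and 90 higher, and of 42461 coding isoforms 1412 were lower and 1405 higher, beside 8.34% lower and 2.04% higher of all 104506 isoforms. With a replicate block in a fit of only the 6 libraries, limma called 0 isoforms in either direction, with 21968 lower and 7504 higher at an unadjusted p under 0.05. After centring the counts were 1202 lower and 234 higher for retained intron isoforms and 507 lower and 3934 higher for coding ones. These tables do not separate a stable isoform with an intron from unspliced precursor RNA, as both give reads in the intron.

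**Figure D5:**
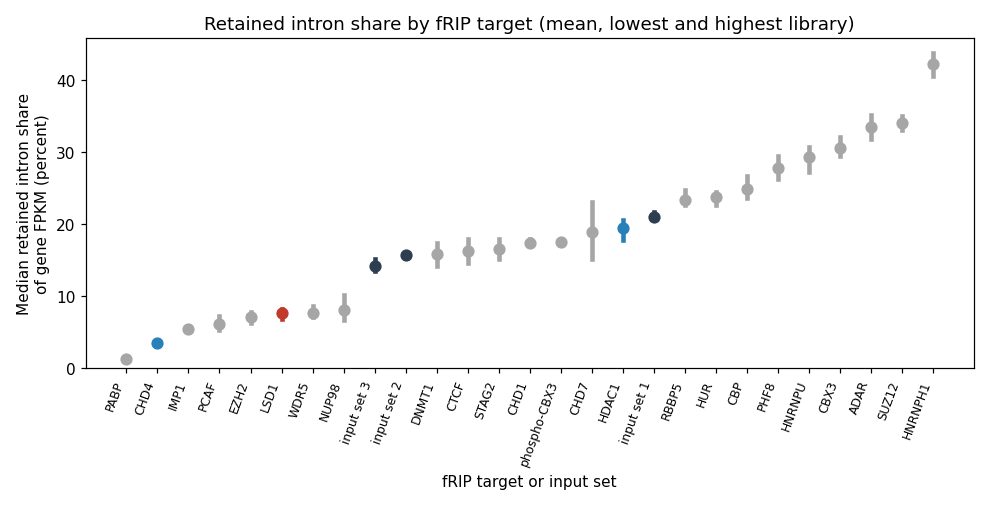
Median share of gene FPKM in retained intron isoforms (percent) for the 24 fRIP targets and 3 input sets, as the mean over libraries with a line from the lowest to the highest library. LSD1 (red) is at 7.57%, number 6 from the lowest of the targets, CHD4 (blue) is at 3.52% and HDAC1 (blue) at 19.4%, close to input set 1 at 21.0%.

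LSD1 was number 6 from the lowest of the 24 targets, between EZH2 (7.02%) and WDR5 (7.70%), neighbours that overlap it in their range of libraries. The poly(A)-binding protein PABP was lowest (1.21%), then CHD4 (3.52%), the mRNA-binding protein IMP1 (5.41%) and PCAF (6.04%), and HNRNPH1 was highest (42.3%). Per gene, the ratio of retained intron to coding isoforms was lower in LSD1 than in input set 1 for 2418 of 4692 genes (51.5%) and higher for 25 (0.533%), at an adjusted p under 0.05 in limma and more than 2-fold, with a median log2 change of -1.07. Ratios against input, here and below, used set 1 alone. It had the highest share, with 21.0% against 15.6% and 14.2% in sets 2 and 3. For the share, every LSD1 library was below each of the 9 inputs for 1695 of the 4692 genes (36.1%) and above each for 37 (0.789%). The share of genes with a lower ratio was 9 of 13 for SR proteins, 9 of 14 for LSD1 and its partners, 9 of 13 for erythroid genes, 13 of 20 for chaperones, 19 of 36 for translation factors and 14 of 64 for ribosomal proteins.

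Single genes show the size of the change. The genes of this and the next paragraph were chosen after their values were seen. In TRA2B, a splicing regulator of the SR family, retained intron isoforms held 23.7, 37.7 and 20.3% in the LSD1 libraries and 82.8, 82.6 and 83.5% in input set 1 (log2 change of the ratio -3.66 ± 0.44 (SE), adjusted p = 8.30e-10). Its nonsense-mediated decay isoform rose instead, from listed values of 8.9e-05, 7.94e-05 and 2.52e-05 FPKM in input set 1 to 34.4, 39.6 and 38.5 FPKM in LSD1, a value that reached 30.0 FPKM in other inputs. In RBBP7, the histone chaperone of NuRD, the share was 4.76, 5.54 and 8.82% in the LSD1 libraries and 29.5, 27.4 and 28.6% in input set 1 (log2 change of the ratio -2.45 ± 0.40 (SE), adjusted p = 6.67e-07). In HDAC1 it was 6.04, 6.21 and 6.27% in the LSD1 libraries and 26.8, 21.9 and 19.8% in input set 1. In TFRC, the transferrin receptor of erythroid cells, it was 15.8, 20.2 and 20.4% in the LSD1 libraries and 35.1, 40.9 and 39.1% in input set 1, while its coding isoforms were alike in both groups with means of 172 and 172 FPKM. So with values as deposited the loss in TFRC lay in the intron isoforms, a reading that depends on the scaling, unlike the share. In GNB1 the coding isoforms rose from a mean of 77.7 to 409 FPKM and the share was 1.23, 0.570 and 1.23% in the LSD1 libraries and 15.8, 13.5 and 11.6% in input set 1. TKT fell from 44.6, 19.9 and 24.3% in input to 2.62, 1.73 and 3.38% in LSD1. GAPDH did not pass, with 8.96, 8.52 and 7.49% in the LSD1 libraries and 10.4, 9.06 and 10.3% in input set 1. Of the 25 genes that went the other way, JMJD1C, a demethylase relative, had 40.9, 23.5 and 23.7% in the LSD1 libraries and 5.18, 4.57 and 4.78% in input set 1 (log2 change of the ratio 2.36 ± 0.38 (SE), adjusted p = 5.48e-07), and DYNC1H1, the dynein heavy chain, had 35.1, 32.6 and 39.0% in the LSD1 libraries and 11.96, 15.4 and 13.6% in input set 1.

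For 1814 of these genes 3956 introns of the main coding isoform could be placed whole inside an exon of a retained intron isoform (GENCODE v44 mapped to GRCh37, the assembly of hg19). They were short, with a median of 249 bases, and 98.7% began with GT and ended with AG. Below are both ends of 5 such introns, to show where the depleted isoforms run on past a splice site: TRA2B chr3:185639915-185641583 (1669 bases), RBBP7 chrX:16870999-16871804 (806 bases), TFRC chr3:195789811-195791179 (1369 bases), LYL1 chr19:13212010-13213344 (1335 bases) and HSPD1 chr2:198359477-198360017 (541 bases), all on the - strand, with the intron in capitals and 10 exon bases in lower case, 5' to 3'.
TRA2B intron, donor side: tgccaaggaaGTAAGTAAAAGCCCGTTCCT
TRA2B intron, acceptor side: AATTTATTTACCTTTTGAAGgctaaagaac
RBBP7 intron, donor side: aacttatgatGTAAGGTGGAAAATTCAGTG
RBBP7 intron, acceptor side: CCTTTACCTTTGTGTTTTAGatgggacacc
TFRC intron, donor side: gtcttaaaagGTAGAGTACAAATTTTGATT
TFRC intron, acceptor side: CTAACTTTTTTCTCTTTCAGatgggtttca
LYL1 intron, donor side: cagtgctgggGTAAGAGGGGAGCGGGCCTA
LYL1 intron, acceptor side: GGCTGCCTTCTTTCCCACAGgtgagtaccc
HSPD1 intron, donor side: aattgcacagGTAAGGACTTAACATGTTAC
HSPD1 intron, acceptor side: GAGTAACTGGATTATTTCAGgttgctacga

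The isoform that keeps the printed TRA2B intron was at 2.48, 3.19 and 2.75 FPKM in LSD1 and 11.3, 12.4 and 13.2 FPKM in input set 1. That of RBBP7 was at 3.59, 2.499 and 5.91 FPKM in LSD1 and 10.2, 8.92 and 8.38 FPKM in input set 1, and that of TFRC at 3.29, 4.01 and 6.37 FPKM in LSD1 and 14.0, 12.5 and 12.7 FPKM in input set 1. In LYL1, a helix-loop-helix partner of TAL1, it was at 4.73, 5.26 and 3.99 FPKM in LSD1 and 15.8, 9.78 and 9.82 FPKM in input set 1. In HSPD1, a mitochondrial chaperonin, it was at 4.06, 1.28 and 4.37 FPKM in LSD1 and 9.14, 6.87 and 8.25 FPKM in input set 1. These 5 genes were chosen after their values were seen, so their values only show the size of the change. The loss was more frequent for genes with long retained introns and less frequent for those rich in G and C. By summed length of these introns per gene, the share of genes with a lower ratio went from 48.2% of 363 in the shortest of 5 bins (69 to 228 bases) to 67.2% of 363 in the longest bin (1669 to 8566 bases). By GC content it was 63.4% in the lowest bin, 68.3% in the next and 39.9% in the highest, beside 55.8% (1012) of the 1814 genes with placed introns.

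LSD1 and HDAC1 share the CoREST complex, and both were captured here, so their fRIPs were compared directly with no input in the contrast. The sources used here do not say whether these fRIPs shared lysates or dates. A difference between targets therefore cannot be told apart from one between lysates or dates, here and for CHD4 below. LSD1 was higher than HDAC1 fRIP for 1104 genes (4.34%) and lower for 4081 (16.0%). After centring the balance turned, to 5137 higher (20.2%) and 1312 lower (5.16%). YBX1 was at 1125, 859 and 1173 FPKM in the LSD1 libraries and 45.6, 53.5 and 71.6 FPKM in the HDAC1 libraries (log2 fold change 4.20 ± 0.27, SE, adjusted p = 1.56e-19). GAPDH was at 1629, 1459 and 1726 FPKM in the LSD1 libraries and 108, 146 and 162 FPKM in the HDAC1 libraries (log2 fold change 3.54 ± 0.23, SE, adjusted p = 1.50e-19). TPT1, a translationally controlled tumor protein, was at 1233, 1439 and 1167 FPKM in the LSD1 libraries and 180.3, 144 and 129.9 FPKM in the HDAC1 libraries (log2 fold change 3.08 ± 0.15, SE, adjusted p = 6.74e-24). The groups of these genes stand far apart. Ribosomal protein mRNAs were higher in LSD1 for 34 of 83 and lower for 2 (61 and 0 after centring), and translation factors for 19 of 39 and 0. Kinesins and centrosomal genes were lower for 17 of 65 and zinc fingers for 87 of 449, the latter near the 16.0% of all genes. After centring 9 kinesins and centrosomal genes were higher and 2 lower, and 50 zinc fingers higher and 14 lower, beside 20.2% higher of all genes. OR8D1, an olfactory receptor, was at 3.91, 1.78 and 3.31 FPKM in the LSD1 libraries and 62.2, 50.5 and 49.5 FPKM in the HDAC1 libraries (log2 fold change -3.82 ± 0.25, SE, adjusted p = 3.99e-19). The retained intron ratio was lower in LSD1 than in HDAC1 for 2231 of 4692 genes and higher for 61, and the shares of 20.6, 17.8 and 19.8% in HDAC1 lay above all 3 LSD1 libraries (exact permutation p = 0.1, the smallest that 3 against 3 can give).

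Against CHD4, the remodeler of NuRD, 912 genes (3.58%) were higher in LSD1 and 1495 (5.88%) lower, and centring left the counts at 936 and 1466. CHD7 was at 139.7, 141 and 173 FPKM in the LSD1 libraries and 7.08, 8.11 and 8.71 FPKM in the CHD4 libraries (log2 fold change 4.08 ± 0.18, SE, adjusted p = 7.98e-26). HDLBP was at 557, 639 and 552 FPKM in the LSD1 libraries and 121, 120.0 and 105 FPKM in the CHD4 libraries (log2 fold change 2.33 ± 0.10, SE, adjusted p = 6.72e-27). At the low end NDUFB1 was at 21.1, 14.7 and 19.5 FPKM in the LSD1 libraries and 252, 146 and 256 FPKM in the CHD4 libraries (log2 fold change -3.46 ± 0.19, SE, adjusted p = 1.13e-21), and RPS29 was at 136, 136 and 148 FPKM in the LSD1 libraries and 1794, 689 and 1646 FPKM in the CHD4 libraries (log2 fold change -3.17 ± 0.23, SE, adjusted p = 4.20e-17). CHD4 libraries varied more for these short mRNAs, without reaching the LSD1 values. Ribosomal protein mRNAs were lower in LSD1 than in CHD4 for 54 of 83 and higher for 0, and respiratory chain mRNAs for 55 of 87 and 0. Zinc fingers were higher for 51 of 449 and lower for 7, kinesins and centrosomal genes for 14 of 65 and 1, and histones for 20 of 76 and 3. The known lncRNAs were lower for 12 of 24 and higher for 2. By transcript length the median difference from CHD4 went from -1.08 in the shortest bin to 0.72 in the longest, and that from HDAC1 from 0.23 to -0.18, the latter turning sign with centring. The retained intron ratio was higher in LSD1 than in CHD4 for 1254 genes and lower for 298. These comparisons and the one with input share the LSD1 libraries.

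In levels over all 25442 genes, the mean profile of LSD1 was most like those of NUP98, a nuclear pore protein (Pearson's r = 0.979), PCAF (0.972) and WDR5 (0.970), and least like that of ADAR (0.784). CHD4 came to 0.962 and HDAC1 to 0.926. These are correlations across genes of the mean log2(FPKM + 1) of each target, given as a description. Genes are not independent replicates, and libraries of the same cell line are alike in their abundant transcripts.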

How the data were processed

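RNA of fRIP and input libraries of K562 cells was sequenced. The authors aligned reads with TopHat to hg19 with GENCODE v18 (base calling with CASAVA 1.4, per the labels) and deposited FPKM per gene and isoform from Cuffnorm and Cuffdiff 2, normalized to transcript length and library size. How reads were filtered, whether strand was used and how libraries were scaled: not given in the sources used here. Their tables of comparisons (fold changes, p-values) were not used, except the pooled input FPKM that identified the nearest input set.

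The members and gene lists were chosen with earlier results of these data known. log2(FPKM + 1) of all 79 libraries, for genes or isoforms of at least 1 FPKM in 2 libraries, was fitted with limma 3.58.1 (R 4.3.3, intensity trend, a mean per protein and input set), with Benjamini-Hochberg adjustment over all features tested. A call needed an adjusted p under 0.05 and more than 2-fold. The fit was first tested on simulated data. Shares were tested by two-sided exact permutation (scipy 1.17.1). Depth was estimated from steps of low FPKM, with a fragment of 170 bases assumed. Since FPKM steps depend on length, no count test was run. Intervals from depth would cover counting error only. RNA classes, transcript lengths and introns came from GENCODE v44 mapped to GRCh37, which matched 46055 of 48453 genes by identifier.

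Named genes were the 10 mRNAs and 5 lncRNAs with the largest change in each direction among genes of at least 5 FPKM outside the range of all 9 inputs, all LSD1 partners, and the top and bottom 2 of each other list. A highest mRNA that met the rule is not reported here. Other genes named from the lists were chosen after their values were seen. Alternatives were centring, upper quartile scaling, other input sets, pseudocounts of 0.1 and 0.5, other filters, a fit of the 6 libraries alone, a replicate block and leaving out each LSD1 or input set 1 library. Centring on abundant mRNAs, centring with all 9 inputs, the per-gene intron ratio and the other isoform classes were added after seeing the data.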

Additional observations from a re-analysis of the deposited data

How the results depend on the processing

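The counts of genes against input kept within 1.5 times under upper quartile scaling, a pseudocount of 0.5, other filters and a fit of the 6 libraries alone. Centring gave 2993 higher and 762 lower genes, and with all 9 inputs 1211 and 614. Lower genes numbered 1695 against all 9 inputs, 1523 against set 2, 1331 against set 3 and 4758 with a pseudocount of 0.1. For isoforms, centring gave 5778 higher and 3374 lower, and the lower count was 5124 against all 9 inputs, 4133 against set 2, 3416 against set 3 and 13909 with a pseudocount of 0.1.

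Against HDAC1, centring gave 5137 higher and 1312 lower genes and a pseudocount of 0.1 gave 6254 lower. Against CHD4, a pseudocount of 0.1 gave 1978 higher. The mitochondrial tRNA difference was -1.30 percentage points without the 10 largest genes. The median of the shortest length bin was 0.22 and of the longest 0.77 after centring, and the latter 0.10 after centring on abundant mRNAs. The cause of these shifts was not tested.

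Leaving out each LSD1 or input set 1 library gave 263 to 359 higher and 2475 to 2669 lower genes, 1620 to 1942 higher and 7423 to 8429 lower isoforms. Leaving out each LSD1 library, the only ones left out there, gave 1122 to 1167 and 3965 to 4120 genes against HDAC1, 930 to 966 and 1462 to 1491 against CHD4, and an intron share difference of -9.68 to -9.00 points.

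Libraries with the same number did not deviate together (r = -0.06, -0.07 and 0.05). Values for unlike numbers ran from -0.09 to 0.13, and 3 libraries per group are too few to exclude pairing. With a replicate block 291 genes were higher and 2719 lower, and 2251 and 8953 isoforms; 0 of the 143 named genes changed their call. With the block and only the 6 libraries limma called 0 isoforms in either direction, with 7504 higher and 21968 lower at an unadjusted p under 0.05, and 251 higher and 2268 lower genes, and of the 143 named genes 7 lost their call and 1 gained it.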

Other observations

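Among lower transcripts 2 families stood out after the values were seen, and no test was run on them. Of 45 olfactory receptor genes, which encode odorant receptors of sensory neurons, 25 were lower in LSD1 fRIP than in input set 1 and 0 higher (median log2 fold change -1.05, and -0.45 after centring, when 13 were lower), beside 10.6% lower of all genes tested. Of 74 lncRNAs whose names mark them as intronic transcripts of a host gene, 39 were lower and 0 higher (-1.13, and -0.52 after centring, when 11 were lower and 1 higher). In K562 cells both kinds of gene had low FPKM, and reads of surrounding precursor RNA cannot be told from their own where strand was not used. Of 6 short sequence motifs counted on the sense strand of the main transcript of 9093 mRNA genes (overlapping matches counted), GGCGGC is given here, chosen after the values were seen. It occurred in 50.5% of them. Genes with none had a median of 0.00 and 1.67% higher calls, and those with 4 or more copies a median of 0.20 and 4.76% higher calls. Their median transcript lengths were 2012.5 and 4222 bases, so length moves with the count of copies. The motif holds only G and C, and higher calls were more frequent in the mRNAs richest in GC than in the poorest. The part of length and GC content in the step was not tested. For each of the 6 motifs the median was higher with 4 or more copies than with none. Higher calls fell with copies for TTTTAAAA (2.31% to 0.621%), ATTTA (2.53% to 1.62%) and AATAAA (2.38% to 1.46%). They rose for GAAGAA (1.54% to 2.71%) and 4 spaced GGG runs (1.98% to 3.70%). In 6 tests for a library far from the others of its group, over the class shares of the 9 inputs and the intron share, 0 libraries exceeded the critical value.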
